A study of Homo sapiens with 4 samples.

Results

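The 7 genes described here, HCN2, HCN3, HCN4, SHOX2, ISL1, TBX18 and VSNL1, belong to the cardiac pacemaker and sinus node. They were chosen by name, and each was found as 1 row among the 23615 gene symbols of the gene table. The 4 libraries were made from poly-A RNA of unsorted day 14 cardiomyocyte cultures, 2 that had passed through A100/B5 CPCs (cardiac progenitor cells, called CPC) and 2 that had passed through A100/B5 ECs given XAV (endothelial cells, called ECsXAV), with each pair being biological replicates. Per the labels, the ECs were anterior hemogenic endothelium. All 4 cultures came from RUES2, a human embryonic stem cell line, and were induced with activin A at 100 ng/ml and BMP4 at 5 ng/ml. They differ in the route taken after that. From day 2 the ECs were derived in a base medium other than that of the CPCs, with VEGF, bFGF and further BMP4. They were given 2 µM XAV, a tankyrase inhibitor that blocks canonical Wnt signaling, from day 5. For the CPCs, 1 µM XAV was added on day 3, as the study's supplement draws it. A single cell line was used. The names of the libraries begin differently in ECsXAV and CPC, and the labels do not say what the prefix stands for. Paired values are given with replicate 1 first.

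The sinus node sets the rhythm of the heart. Its cells depolarize on their own, in part through HCN channels, which open when the membrane hyperpolarizes, carry the inward pacemaker current and bind cyclic AMP. HCN4 is the main channel of the family in the node, and HCN2 and HCN3 are further family members. SHOX2, ISL1 and TBX18 are transcription factors of the developing node. SHOX2 keeps the working myocardial program off in the venous pole, ISL1 marks second heart field progenitors and remains on in the node, and TBX18 is needed for the head of the node and is also expressed in epicardium and pericytes. VSNL1 encodes visinin-like 1, a neuronal calcium sensor that is also known from the sinus node. Embryonic cardiomyocytes of every chamber can beat on their own, and HCN4 is also expressed in early cardiac progenitors.

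The libraries were of unequal depth. Values are FPKM (fragments scaled to the length of the transcript and to all mapped fragments of the library), so they are per length and may be set side by side between genes. FPKM of weakly expressed genes lie on steps of whole fragments, from which about 20400000 and 10200000 fragments were estimated for the ECsXAV replicates and about 17700000 and 16300000 for the CPC replicates. ECsXAV replicate 2 is therefore the least precise library for weakly expressed genes. The cultures carried the markers of cardiomyocytes in all 4 libraries, with 2309 to 2988 FPKM of TNNT2 (cardiac troponin T) and 6701 to 8786 FPKM of MYL7 (atrial myosin light chain). Of 5 endothelial markers, KDR was at 7.06 to 10.8 FPKM. CDH5 had 1.19 and 1.49 FPKM against 0.875 and 0.649 FPKM, and TEK had 0.446 and 0.831 FPKM against 0.263 and 0.124 FPKM, both without overlap and higher in ECsXAV. PECAM1 was at 0.0425 to 0.233 FPKM and VWF at 0 to 0.0209 FPKM.

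Because the HCN channels are paralogs, a stretch common to the 3 is shown first. It codes for the selectivity filter of the pore, in exon 4 of 8 of each gene, and the capitals mark the codons of the glycine-tyrosine-glycine signature with 21 bases on either side. The sequences are from GRCh37 (the build of hg19), 5′ to 3′ on the coding strand. HCN4 is read from chr15:73622037-73622087 on the minus strand (signature residues 480 to 482 of 1203), HCN2 from chr19:608009-608059 on the plus strand (429 to 431 of 889) and HCN3 from chr1:155254375-155254425 on the plus strand (313 to 315 of 774).
HCN4: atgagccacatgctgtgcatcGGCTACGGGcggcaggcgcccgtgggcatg
HCN2: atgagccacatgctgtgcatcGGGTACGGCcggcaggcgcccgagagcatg
HCN3: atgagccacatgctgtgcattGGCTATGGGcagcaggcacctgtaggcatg
Over these 51 bases, HCN2 and HCN4 differed at 4 positions, HCN3 and HCN4 at 6, and HCN2 and HCN3 at 10. Over whole transcripts the paralogs shared little exact sequence. The longest identical run was 59 bases between HCN2 and HCN3, 38 bases between HCN2 and HCN4 and 34 bases between HCN3 and HCN4. Of the 36-base windows of HCN2, 24 of 3385 also occurred in HCN3 and 3 in HCN4, while HCN3 and HCN4 had no such window in common. Reads that lie wholly within a shared run could match either gene exactly, and how the authors treated such reads for FPKM is not given in the sources used here.

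HCN4 was by far the most abundant of the 7 genes, at about the same level in both groups. HCN4 (chromosome 15, 73612200 to 73661299, minus strand) had 27.6 and 29.3 FPKM in ECsXAV and 28.8 and 27.0 FPKM in CPC cardiomyocytes. The groups overlapped, and the means were 28.4 ± 1.195 and 27.9 ± 1.28 FPKM (SD, n = 2 each). The log2 fold change of CPC minus ECsXAV was -0.025 (SE 0.11, limma adjusted p = 0.927). Its 95% confidence interval ran from -0.30 to 0.25, so a difference of 2-fold lies outside it. Fold changes here are on the log2(FPKM + 1) scale, which shrinks those of weakly expressed genes. The mean over the 4 libraries, 28.2 FPKM, lay at percentile 89.0 of all genes above 0. In unsorted cultures, fewer cells of a type and less RNA per cell cannot be told apart, for this gene and those that follow.

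**Figure D1:**
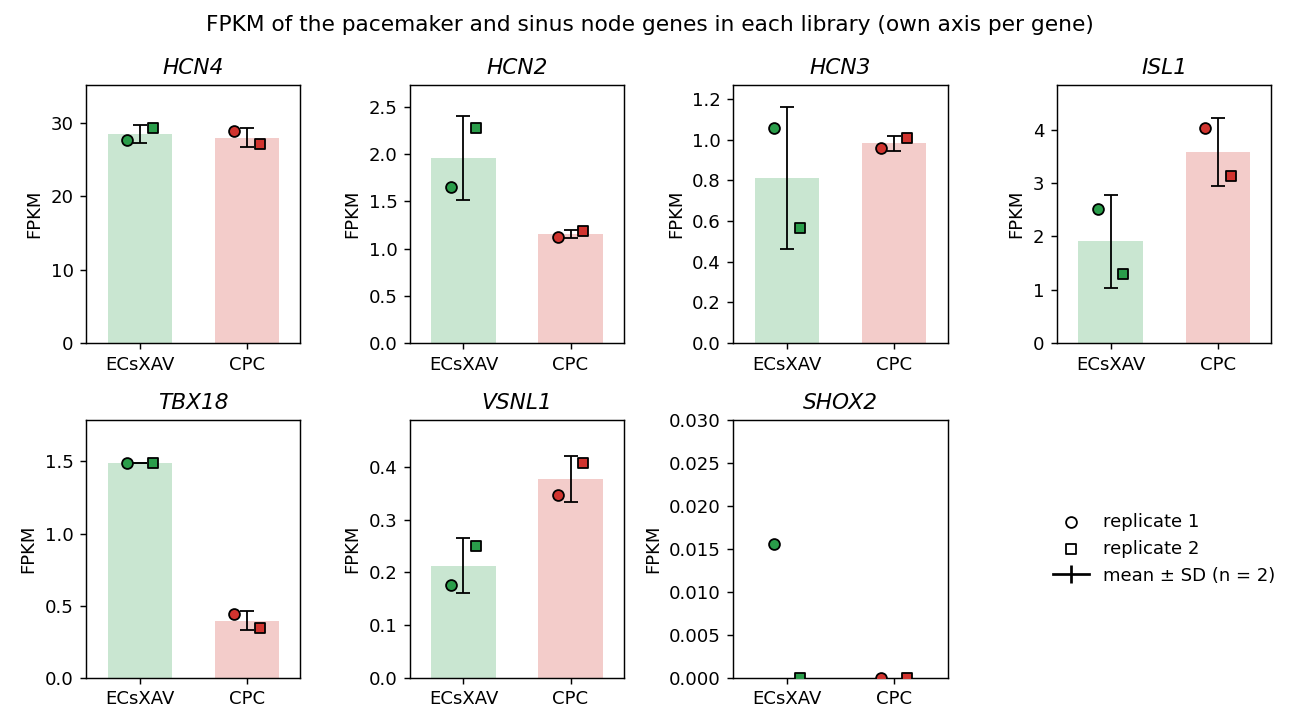
FPKM of the 7 genes in each library, on an axis of its own for each gene. Circles are replicate 1, squares replicate 2, bars the group mean and whiskers the SD (n = 2); SHOX2 is shown as points alone. HCN4 lies between 27.0 and 29.3 FPKM in all libraries, TBX18 is at 1.49 FPKM in both ECsXAV replicates and at 0.444 and 0.348 FPKM in the CPC replicates, and SHOX2 is above 0 in a single library.

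The other HCN channels of the set were low. HCN2 (chromosome 19, 589881 to 617159, plus strand) had 1.65 and 2.28 FPKM in ECsXAV and 1.12 and 1.18 FPKM in CPC cardiomyocytes. Both ECsXAV replicates were above both CPC replicates, with group means of 1.96 ± 0.445 and 1.15 ± 0.0451 FPKM (SD, n = 2 each), a ratio of 1.70. The log2 fold change was -0.45 (SE 0.17), and it did not pass the test (adjusted p = 0.261, unadjusted p = 0.045 from limma). Without ECsXAV replicate 2 it was -0.30, and without ECsXAV replicate 1 it was -0.61. HCN3 (chromosome 1, 155247254 to 155259639, plus strand) had 1.06 and 0.565 FPKM in ECsXAV and 0.957 and 1.01 FPKM in CPC cardiomyocytes. The CPC values lay between the ECsXAV values. The lowest value came from ECsXAV replicate 2, the library with the lowest depth, which also held the highest values of HCN2 and HCN4.

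Within the sum of the 3 channels, the share of each channel does not depend on scaling between libraries. HCN4 made up 91.1% and 91.2% of the summed HCN2, HCN3 and HCN4 FPKM in the ECsXAV replicates and 93.3% and 92.5% in the CPC replicates. HCN2 made up 5.44% and 7.09% against 3.62% and 4.05%, and HCN3 made up 3.49% and 1.76% against 3.10% and 3.45%. The difference of the mean shares, CPC minus ECsXAV, was 1.78 percentage points for HCN4 and -2.43 points for HCN2, while the sum was 29.2 to 32.1 FPKM in all libraries. An exact permutation test, two-sided, gave p = 0.333 for HCN4 and for HCN2, which is the smallest value that 2 libraries against 2 allow, and p = 1 for HCN3.

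**Figure D2:**
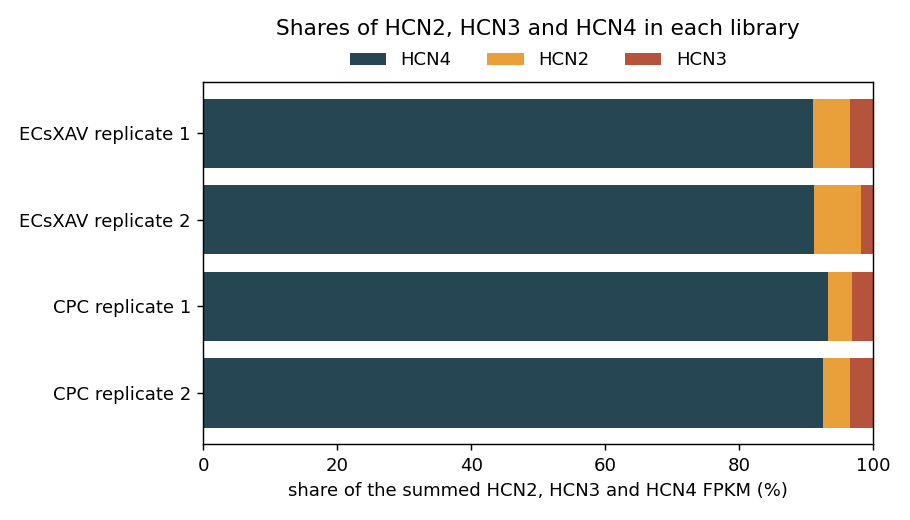
Shares of HCN2, HCN3 and HCN4 in each library, as the percent of their summed FPKM. HCN4 fills 91.1% to 93.3% of each bar, and the HCN2 segment is wider in the ECsXAV bars, at 5.44% and 7.09% against 3.62% and 4.05%.

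Of the 3 transcription factors, TBX18 had the largest ratio between the groups. TBX18 (chromosome 6, 85397069 to 85474316, minus strand) had 1.49 and 1.49 FPKM in ECsXAV and 0.444 and 0.348 FPKM in CPC cardiomyocytes. These values correspond to 193 and 97 fragments in the ECsXAV replicates and to 50 and 36 in the CPC replicates, as the smallest whole numbers that fit the FPKM steps. Counting intervals (95%, exact Poisson, counting error only) of 1.29 to 1.71 and 1.21 to 1.82 FPKM in the ECsXAV replicates lay above those of 0.329 to 0.585 and 0.244 to 0.481 FPKM in the CPC replicates. The means were 1.49 ± 0.00286 and 0.396 ± 0.0678 FPKM (SD, n = 2 each), and the ratio of ECsXAV to CPC was 3.76. The agreement of the ECsXAV replicates is closer than their counting intervals.

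With a mean of 0.943 FPKM over the libraries, TBX18 lay just below the filter of 1 FPKM and had no test in the planned fit. Without a filter the log2 fold change was -0.84 (limma adjusted p = 0.0700), and TBX18 was not called. The added 1 also compresses fold changes at this level, so other filters and a smaller pseudocount were tried after its values had been seen. Over the genes with a mean of at least 0.3 FPKM, the log2 fold change on the log2(FPKM + 1) scale was -0.84 (SE 0.11, limma adjusted p = 0.0402), under the 2-fold limit. With 0.1 added in place of 1 it was -1.69 (SE 0.26, 95% interval from -2.36 to -1.02, adjusted p = 0.0466 from limma), past the criterion, as were 2.56% of the 14286 genes tested there. That call was lost without each library in turn, with adjusted p from 0.143 to 0.211 from limma and log2 fold changes from -1.83 to -1.55. It was also lost with this pseudocount and no filter, with an adjusted p of 0.0997 from limma.

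ISL1 (chromosome 5, 50679282 to 50690564, plus strand) lay in the other direction. It had 2.52 and 1.29 FPKM in ECsXAV and 4.03 and 3.13 FPKM in CPC cardiomyocytes. The smallest whole numbers that fit these values were 140 and 36 fragments against 195 and 139. Estimates by transcript length were lower, at 122.9 and 31.6 against 171.1 and 121.9. Both CPC replicates were above both ECsXAV replicates. The lowest value again came from ECsXAV replicate 2, the library with the lowest depth, which held the highest values of HCN2 and HCN4. A part of depth in these values was not tested. The means were 1.90 ± 0.866 and 3.58 ± 0.639 FPKM (SD, n = 2 each), a ratio of CPC to ECsXAV of 1.88. The log2 fold change of 0.68 (SE 0.25) did not pass the test (adjusted p = 0.254, unadjusted p = 0.0424 from limma), and it was 0.38 without ECsXAV replicate 2.

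SHOX2 (chromosome 3, 157813694 to 157824209, minus strand) was at the limit of detection. It had 0.0155 FPKM in ECsXAV replicate 1, the worth of 1 fragment, and was listed at 0 in the other 3 libraries. A count of 0 allows up to 0.0928 FPKM in ECsXAV replicate 2 and up to 0.0535 and 0.0583 FPKM in the CPC replicates (3 fragments, counting error only). No fold change is given for it, and expression below these limits could have gone unseen at this depth.

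VSNL1 (chromosome 2, 17720393 to 17838285, plus strand) was low in all libraries. It had 0.175 and 0.250 FPKM in ECsXAV and 0.346 and 0.408 FPKM in CPC cardiomyocytes. The smallest whole numbers that fit these values were 7 and 5 fragments against 12 and 13. Estimates by transcript length were 8.7 and 6.2 against 14.9 and 16.1. Both CPC replicates were above both ECsXAV replicates, with a ratio of means of 1.77. However, the counting intervals overlapped, at 0.0705 to 0.361 and 0.0812 to 0.583 FPKM against 0.179 to 0.605 and 0.217 to 0.698 FPKM. Without a filter on low FPKM, the log2 fold change was 0.18 (limma adjusted p = 0.226).

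Of the 7 genes, 3 (HCN2, HCN4 and ISL1) had a mean of at least 1 FPKM and could be tested in the planned fit. None of them passed the criterion (limma adjusted p under 0.05 together with over 2-fold), with HCN2 and ISL1 at an unadjusted p under 0.05, as were 18.2% of all genes tested. The criterion was passed by 266 of the 12398 genes tested, which is 2.15%. The values of the groups did not overlap for 4 of the 7 genes (HCN2, ISL1, TBX18 and VSNL1), but the same holds for 46.6% of the 18772 genes above 0 in a library, so that separation alone is common in these data.

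**Figure D3:**
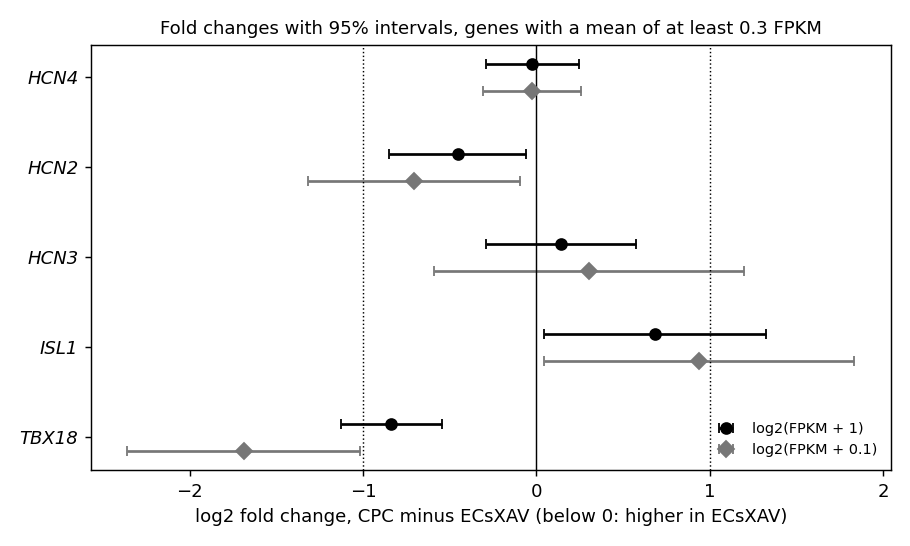
Log2 fold changes of CPC minus ECsXAV with 95% confidence intervals from limma, for the 5 of the 7 genes with a mean of at least 0.3 FPKM. Black circles are on the log2(FPKM + 1) scale, grey diamonds on the log2(FPKM + 0.1) scale, and dotted lines mark 2-fold. HCN4 is centred at 0, TBX18 is the lowest at -0.84 and -1.69, and the intervals of HCN3 include 0.

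Ordered by the mean over the 4 libraries, the level of HCN4 was 10.3-fold that of ISL1 (2.74 FPKM), with no overlap. ISL1 was followed by HCN2 (1.56 FPKM), TBX18 (0.943 FPKM) and HCN3 (0.897 FPKM), and the ranges of these neighbours over the 4 libraries overlapped. Within the groups the order was clearer in part. HCN2 was above TBX18 in each group without overlap, and ISL1 was above HCN2 in CPC cardiomyocytes but overlapped it in ECsXAV. TBX18 was above HCN3 in ECsXAV and below it in CPC cardiomyocytes. VSNL1 (0.295 FPKM) lay below all values of HCN3, and SHOX2 below all values of VSNL1. The genes whose values were most like those of HCN4 over the 4 libraries, by the Euclidean distance of log2(FPKM + 1) among the 12398 tested genes, were ADNP, CBX1 and HSDL1, at distances of 0.0545, 0.0575 and 0.0827.

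Partners and modulators of the pacemaker current were mostly not called. Of 8 tested genes of 10, 1 was called as higher in ECsXAV cardiomyocytes and none as higher in CPC cardiomyocytes, while 5 had an unadjusted p under 0.05. Among all tested genes 2.15% were called and 18.2% had an unadjusted p under 0.05, for this and the lists that follow. The median log2 fold change of the list was 0.13, against -0.00453 for all tested genes. The called gene was ADCY6, an adenylyl cyclase that makes cyclic AMP in cardiomyocytes, with 53.3 and 55.5 FPKM in ECsXAV and 19.5 and 21.6 FPKM in CPC cardiomyocytes. Its log2 fold change was -1.37 (SE 0.11, limma adjusted p = 0.0151). POPDC2, a cyclic AMP-binding Popeye protein, had 193 and 191 FPKM against 89.5 and 105 FPKM, and the log2 fold change was -0.98 (limma adjusted p = 0.0397), just under the 2-fold limit. BVES (POPDC1), of the same family, had a log2 fold change of -0.65 and POPDC3 one of -0.029, neither past the test (adjusted p = 0.131 and 0.963 from limma). Among the other cyclases, ADCY5 was at 5.004 and 8.46 FPKM against 8.58 and 8.06 FPKM, with overlapping groups. ADCY1 had 2.75 and 3.21 FPKM against 7.62 and 5.28 FPKM, with a log2 fold change of 0.89 (limma adjusted p = 0.0975). ADCY1 was called only at 0.3 FPKM with a pseudocount of 0.1 and no short RNA genes, as were 4.58% of the genes tested there. ADCY6 was not called without a filter or without any 1 of the 4 libraries. With a pseudocount of 0.1, ADCY8, a further cyclase at 2.47 and 1.99 FPKM against 4.55 and 5.30 FPKM, was also called, as higher in CPC cardiomyocytes.

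Other transcription factors and signals of the node gave no call in 5 tested genes of 6, with a median log2 fold change of 0.24 and 2 genes at an unadjusted p under 0.05. NKX2-5, a cardiac factor that is low in the mature node, had 118 and 140 FPKM in ECsXAV and 128 and 182 FPKM in CPC cardiomyocytes. MEF2C had 23.4 and 19.1 FPKM against 33.5 and 30.5 FPKM, and TBX5 had 16.7 and 18.95 FPKM against 12.8 and 15.4 FPKM. The log2 fold change of TBX5 was -0.32 (limma adjusted p = 0.315), whereas the paper names TBX5 among the cardiac genes that differed significantly in its own test. SHOX, the relative of SHOX2, was listed at 0 in all 4 libraries. TBX3, a repressor of the working myocardial program in the conduction system, was singled out after its values were seen. It had 1.96 and 2.47 FPKM in ECsXAV and 6.46 and 4.17 FPKM in CPC cardiomyocytes, and the log2 fold change was 0.95 (SE 0.22, limma adjusted p = 0.110). TBX3 was called only at 0.3 FPKM with a pseudocount of 0.1 and no short RNA genes, as were 4.58% of the genes tested there.

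All 9 calcium cycling genes were tested, none was called, and 7 had an unadjusted p under 0.05. Of the 9, 7 were lower in CPC cardiomyocytes, with a median log2 fold change of -0.42. PLN (phospholamban, the inhibitor of the calcium pump) had 1234 and 1085 FPKM in ECsXAV and 629 and 640 FPKM in CPC cardiomyocytes, and the log2 fold change was -0.87 (limma adjusted p = 0.0629). ATP2A2 (the calcium pump itself) had a log2 fold change of -0.42, SLC8A1 (the sodium-calcium exchanger) one of -0.30 and RYR2 (the calcium release channel) one of -0.26. The genes on the other side of 0 were CACNA1D and CACNA1G, calcium channels known from the sinus node, named here after their values were seen. CACNA1D had 3.75 and 3.47 FPKM against 8.17 and 5.09 FPKM, and CACNA1G had 0.639 and 1.19 FPKM against 2.29 and 2.02 FPKM. Their log2 fold changes were 0.70 and 0.73, with adjusted p of 0.195 and 0.145 from limma. CACNA1C and CACNA1H, the other calcium channels of the list, were higher in ECsXAV without overlap. Their log2 fold changes were -0.69 and -0.54, with adjusted p of 0.0929 and 0.143 from limma. CASQ2 (calsequestrin, a calcium store protein), also named after its values were seen, had 3.38 and 2.09 FPKM against 0.437 and 0.476 FPKM. It was at -1.34 (limma adjusted p = 0.0542). Several alternatives called CASQ2, among them a pseudocount of 0.1, no intensity trend, removal of short RNA genes and a filter of 0.3 FPKM. It was not called without a filter, or after scaling by quantiles or by the median of ratios. The paper names CASQ2 among the cardiac genes that differed significantly in its own test.

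Genes of electrical coupling and the vagal response gave no call in 4 tested genes of 6, none at an unadjusted p under 0.05, with a median log2 fold change of 0.00115. KCNJ5, a subunit of the acetylcholine-activated potassium channel, was at 22.6 to 27.5 FPKM, while KCNJ3, its partner subunit, was at 0.0131 to 0.0642 FPKM. CHRM2 (the muscarinic receptor of the heart) was at 9.11 to 16.0 FPKM and GJC1 (Cx45, the gap junction protein of the node) at 4.51 to 6.15 FPKM. RGS4, a regulator of G protein signaling, was at 1.65 to 3.02 FPKM. Of the genes enriched in single-cell data of the node, 2 of 6 were tested and none was called. CPNE5, a copine, had 4.98 and 6.09 FPKM in ECsXAV and 11.1 and 10.7 FPKM in CPC cardiomyocytes, and the log2 fold change was 0.87 (limma adjusted p = 0.0485), under the 2-fold limit. IGFBP5 was at 12.5 to 15.8 FPKM. Of the untested genes, SMOC2 had 0.294 and 0.278 FPKM in ECsXAV and 0.0535 and 0.0194 FPKM in CPC cardiomyocytes. BMP10 had 0.686 and 0.522 FPKM against 0.226 and 0.246 FPKM, also higher in ECsXAV without overlap. NTM lay the other way, at 0.328 and 0.369 FPKM against 0.591 and 0.623 FPKM, and CNTN2 overlapped between the groups.

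Of working myocardium, 3 of the 4 tested genes passed the criterion, against 2.15% of all genes tested. All 3 were higher in ECsXAV cardiomyocytes, and the median log2 fold change was -2.75. The list was chosen with earlier results of these data known, and the paper names GJA1 and GJA5 among its differing genes. This count is therefore no independent result. NPPA (the atrial natriuretic peptide, which the node lacks) was at 264 and 331 FPKM in ECsXAV and fell to 26.1 and 32.4 FPKM in CPC cardiomyocytes, with a log2 fold change of -3.30 (limma adjusted p = 0.00605). NPPB (the B-type peptide) fell from 108 and 122 FPKM to 6.07 and 6.84 FPKM, and GJA1 (Cx43) from 16.2 and 19.7 FPKM to 2.63 and 3.60 FPKM. The log2 fold changes of these genes were -3.96 and -2.21, with adjusted p of 9.2e-04 and 0.0139 from limma. GJA5 (Cx40) had a log2 fold change of -0.95 (limma adjusted p = 0.115), and KCNJ2, the inward rectifier, was at 0.0785 to 0.131 FPKM. With an ECsXAV replicate left out, NPPA and NPPB were still called, and with a CPC replicate left out, or with no filter, NPPB alone.

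**Figure D4:**
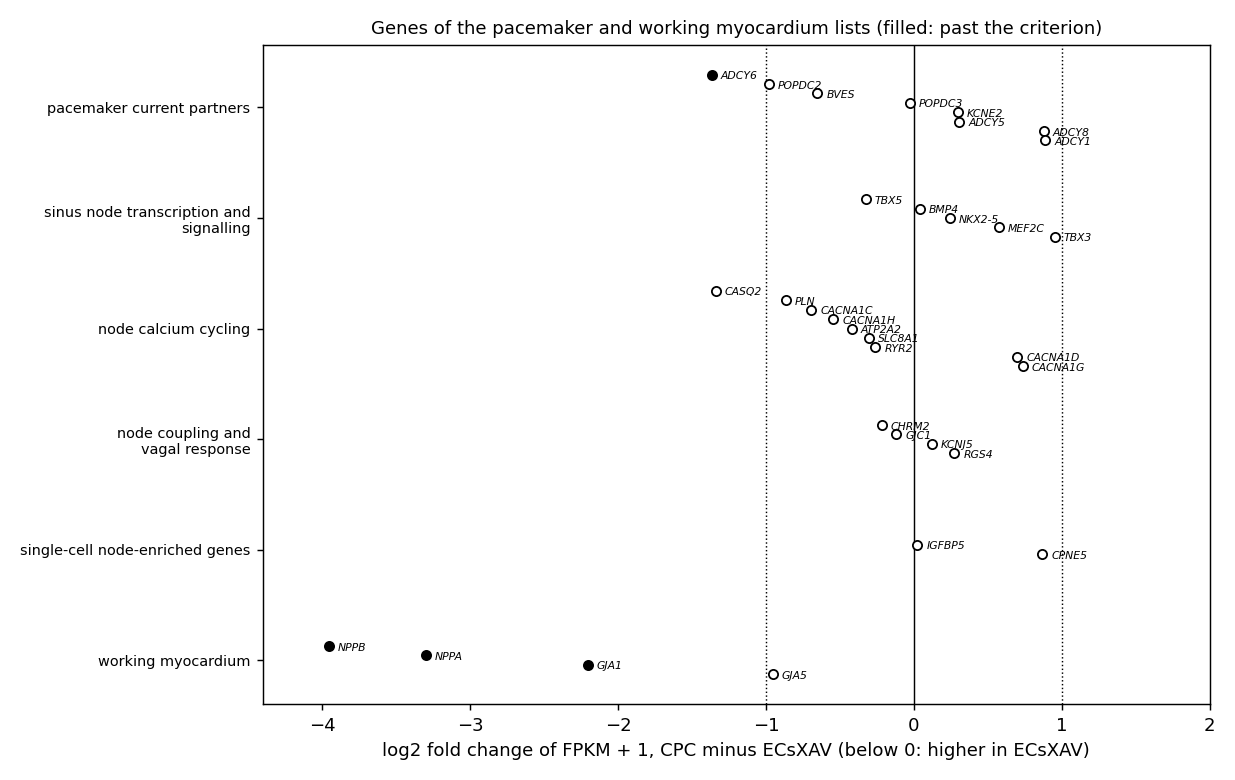
Log2 fold changes of FPKM + 1, CPC minus ECsXAV, for the tested genes of the node lists and of working myocardium, 1 symbol per gene. Filled symbols passed the criterion (adjusted p under 0.05 from limma and over 2-fold), and dotted lines mark 2-fold. The filled symbols are ADCY6 and 3 of the 4 working myocardium genes, from -3.96 to -1.37.

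Markers of other cells that are known to express these genes, and of further cell types, were read in the same libraries. For TBX18, 7 of the 8 epicardial markers were below 1 FPKM in all libraries. Of these, WT1 (0.142 and 0.0978 FPKM against 0.0234 and 0.0763 FPKM), TCF21 (0.0451 and 0.0846 FPKM against 0.0173 and 0 FPKM) and UPK1B were higher in ECsXAV without overlap. ALDH1A2 lay the other way, at 0.0451 and 0.0600 FPKM against 0.294 and 0.207 FPKM. UPK3B (0 to 0.109 FPKM), MSLN and BNC1 overlapped between the groups. The eighth, LRRN4, was at 21.6 to 29.6 FPKM with overlapping groups. Pericyte and smooth muscle markers summed to 209 and 180 FPKM in ECsXAV and 147 and 161 FPKM in CPC cardiomyocytes. None of the 4 tested of these 6 was called. CNN1 (calponin) had 94.2 and 94.9 FPKM against 45.5 and 60.5 FPKM, the direction of TBX18, with a log2 fold change of -0.84 (limma adjusted p = 0.0803). RGS5, CSPG4 and PDGFRB were also higher in ECsXAV without overlap. RGS5 had 30.3 and 23.045 FPKM against 22.985 and 18.2 FPKM. CSPG4 had 3.16 and 3.37 FPKM against 2.90 and 2.74 FPKM, and PDGFRB had 0.689 and 0.752 FPKM against 0.472 and 0.555 FPKM. ACTA2 overlapped between the groups at 57.5 to 80.5 FPKM, and MYH11 lay the other way, at 0.0844 and 0.154 FPKM against 0.351 and 0.433 FPKM. LUM (lumican), the 1 called gene of 5 fibroblast markers, had 8.21 and 10.7 FPKM against 0.652 and 0.473 FPKM, the direction of TBX18. DCN (means of 0.505 FPKM in ECsXAV and 0.021 FPKM in CPC cardiomyocytes) and TCF21 lay the same way without overlap. POSTN lay the other way without overlap, with means of 7.04 FPKM in ECsXAV and 7.99 FPKM in CPC cardiomyocytes. PDGFRA overlapped between the groups at 10.8 to 14.5 FPKM. The fibroblast sums, LUM included, were 26.6 and 29.3 FPKM against 24.1 and 18.4 FPKM. AFP, the 1 called gene of 5 endoderm markers, was also higher in ECsXAV (11.4 and 9.70 FPKM against 0.199 and 0.124 FPKM). The endoderm markers, read as those of a further cell type, summed to 17.2 and 16.0 FPKM against 3.31 and 3.15 FPKM. LUM and AFP were not called when a CPC replicate was left out. LUM was also not called without a filter. The part of these cells in the level of TBX18 was not tested.

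For ISL1, the 5 second heart field markers summed to 13.5 and 11.2 FPKM in the ECsXAV replicates and to 37 and 23.9 FPKM in the CPC replicates, the same direction as ISL1. FGF10 had 7.11 and 5.93 FPKM against 26.1 and 14.4 FPKM (log2 fold change 1.45, adjusted p = 0.0848 from limma), neither of the 2 tested markers was called, and TBX1 was at 0.0301 to 0.143 FPKM. FGF10 was called, as higher in CPC cardiomyocytes, when genes of short RNAs were left out. The 9 markers of paraxial mesoderm summed to 1.76 and 3.31 FPKM against 9.71 and 7.98 FPKM, and 7 of them were below 1 FPKM in all libraries. Of that list UNCX was called, with 0.0972 and 0.129 FPKM in ECsXAV and 6.27 and 4.71 FPKM in CPC cardiomyocytes. Without a filter UNCX was not called on the log2(FPKM + 1) scale, but it was with a pseudocount of 0.1. For ISL1 and VSNL1, the 7 neuronal markers summed to 4.36 and 4.07 FPKM against 5.83 and 5.26 FPKM. SNAP25, the only neuronal marker above 1 FPKM and the only 1 tested, was not called and had 2.59 and 2.24 FPKM against 4.86 and 4.07 FPKM. Other markers of the list lay the other way, with STMN2 at 0.581 and 0.758 FPKM against 0 and 0.0280 FPKM and SYT1 at 0.430 and 0.536 FPKM against 0.185 and 0.256 FPKM. Endothelial markers summed to 11.5 and 9.63 FPKM against 12.03 and 9.53 FPKM, most of it KDR, and neither of the 2 tested (CDH5 and KDR) was called. Of the cardiomyocyte markers, 1 of 6 was called, MYH6, with 855 and 857 FPKM in ECsXAV and 2070 and 1901 FPKM in CPC cardiomyocytes. MYH6 was not called without any 1 of the 4 libraries or without a filter. With a filter of 0.3 FPKM it was not called on the log2(FPKM + 1) scale. Of the 4 stem cell markers, NANOG was listed at 0 and none was called. The part of these cells in the levels of ISL1 and VSNL1 was not tested.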

How the data were processed

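Poly-A libraries of 4 day 14 cultures were analysed, with groups taken from the labels. The authors deposited FPKM per gene and per RefSeq transcript, computed per the methods with Cufflinks 2.1.1 and UCSC annotations on hg19, while the submitters' processing notes name TopHat 1.3.3 and Cufflinks. Read counts were not used here, and whether the FPKM used strand is not given in the sources used here. Depth was estimated from FPKM of 0.005 to 0.1, taken as whole fragments within 0.1, and transcript length.

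Genes with a mean of at least 1 FPKM entered limma 3.58.1 (R 4.3.3) as log2(FPKM + 1). The variance prior had an intensity trend, and p were adjusted after Benjamini and Hochberg. For symbols with several rows, the row with the highest mean was used. The fit was tested on simulated data. HCN shares were compared with an exact permutation test (SciPy 1.17.1). Coordinates and sequences were read from GENCODE 44 lifted to GRCh37. Other steps ran in Python 3.11.15 with NumPy 2.4.6 and pandas 2.3.3, and plots in matplotlib 3.10.9.

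The genes and lists were chosen with earlier results of these data known. Some list genes, and an alternative that needs 1 of them, are not reported here, and counts, medians and sums are without them. Genes of the node and working myocardium lists are named where they passed the criterion or were among the 4 others with the highest mean FPKM. Other genes of these lists, and the cell type markers named, were chosen after their values were seen. Alternatives were a pseudocount of 0.1, no filter, a filter of 5 FPKM, scaling by quantiles or by the median of ratios, a prior without the trend, a block on the replicate number, transcripts summed per gene, removal of short RNAs (the microRNA and snoRNA genes) and removal of each library. Filters of 0.3 FPKM, and no filter with a pseudocount of 0.1, were added after seeing the data.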

Additional observations from a re-analysis of the deposited data

How the results depend on the processing

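The data hold 2 libraries per group, and the depth limits genes of low FPKM. Of all genes tested, 266 passed the criterion, against 20 without a filter, 152 at a mean of at least 5 FPKM, 35 with no filter and a pseudocount of 0.1, and 640 at 0.3 FPKM with a pseudocount of 0.1 and no short RNA genes. Without each library in turn, 50 to 118 passed, or 91, 100, 48 and 60 at 0.3 FPKM with a pseudocount of 0.1 (without ECsXAV replicates 1 and 2 and CPC replicates 1 and 2), and a group of 1 library is then assumed to vary like the other. HCN2 and ISL1 did not pass under any of 22 alternatives each. They kept their direction, but as their groups do not overlap, neither a pseudocount nor a left-out library could turn it. The filters, the trend and the block leave the fold change as it is. The direction of HCN4 is not settled, with log2 fold changes of 0.017 without ECsXAV replicate 2 (0.017 at the lower filter and pseudocount) and of 0.020 without CPC replicate 2 (0.021), and of -0.070 without CPC replicate 1. HCN3 turned to -0.054 (-0.097) without ECsXAV replicate 2, and was at 0.34 without ECsXAV replicate 1. The HCN4 share stayed higher in CPC cardiomyocytes under 6 alternatives, by 0.916 to 2.17 points. Its values do not overlap between the groups either, so leaving out a library could not turn it. TBX18, whose groups do not overlap either, kept its direction under 14 alternatives, which for the same reasons is no test of it. It passed under 2, at 0.3 FPKM with a pseudocount of 0.1, with and without short RNA genes (adjusted p = 0.0466 and 0.0110 from limma). Why these values moved was not tested, beyond the smaller number of libraries or the other set of genes in the fit.

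Replicate numbers are shared between the groups, but neither the labels nor the methods state that cultures of 1 number shared a batch. The differences between replicates correlated between the groups at a Spearman rho of 0.356 and a Pearson r of 0.0349 across 12398 genes, which are not independent replicates. With the replicate block, 176 genes passed in place of 266, while leaving out short RNA genes gave 346 passing genes under the block against 339. With the block alone, POPDC2 had an adjusted p of 0.0533, MYH6 was no longer called (0.0582), and TBX18 (0.3 FPKM, pseudocount of 0.1) was not called (0.0701), all from limma. ISL1 had an adjusted p of 0.124 with the block, and of 0.0212 with the block and no short RNA genes, both under 2-fold.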

Other observations

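The 3 tested genes whose values over the 4 libraries were nearest to those of TBX18, looked up after the values of TBX18 were seen, were KREMEN2, a receptor that binds Dickkopf proteins in Wnt signaling, KANK4 and NRCAM, a neuronal cell adhesion molecule. Their Euclidean distances on the log2(FPKM + 1) scale were 0.172, 0.203 and 0.214. KREMEN2 had 1.58 and 1.78 FPKM in ECsXAV and 0.441 and 0.397 FPKM in CPC cardiomyocytes. The SHOX2 signal in ECsXAV replicate 1 was assigned by the authors mainly to 1 of 3 RefSeq transcripts, with 93.3% of its FPKM, although it amounts to a single fragment. For HCN3, NM_020897 carried nearly all of the FPKM in each library.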
